A study of Bos taurus with 20 samples.

Results

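The genes described here are 46 mitotic and replication genes of cattle, chosen by symbol as markers of dividing cells. They were looked up in the blood of 20 pregnant cows. All 46 symbols matched an identifier in the RefSeq gene table, and 45 of them had at least 10 counts in at least 5 cows, among 16269 of 37063 genes that passed this filter. The 45 genes comprise 35 that act in mitosis and 10 that act in DNA replication. The remaining gene, KIF20A, a kinesin of the final step of cell division, had 0 counts in every cow out of 658748645 counts in all. A count of 0 allows up to 3 counts, a limit that covers counting error only. Its RefSeq neighbour CDC23, a subunit of the anaphase-promoting complex, had 420 to 799 counts per cow. Whether the annotation behind the counts could take up reads of KIF20A under this identifier, and whether the gene was transcribed, was not tested.

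The samples were 20 recipients of in vitro produced embryos that carried female calves, bled at day 63 of gestation, with 1 library of whole blood per cow. According to the study's methods, the oocytes came from beef dams and were fertilized with sex-sorted semen. The recipients are called lactating dairy cows in the methods but Angus in its list of studies. That list also gives their age as a range of several years, without the age of each cow. The labels give neither breed nor age, and neither was modelled. There was 1 group, with no nonpregnant control, and the variable was the birth weight (BW) of the calf, which had a mean of 44.995 kg ± 10.1 (SD, n = 20) and ranged from 30 to 72.5 kg. Each cow is named below by the BW of her calf in kg, so that cow 50 carried the 50 kg calf. The models on BW used 19 cows, without cow 72.5, which was kept in the descriptions of co-variation.

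A cell that divides first copies its DNA and then separates the copies. The MCM proteins form the helicase that opens the DNA, PCNA is the clamp that holds the polymerase, and ribonucleotide reductase and thymidylate synthase supply the building blocks. Cyclins and their kinases then drive the cell into mitosis, where kinesins, kinetochore proteins and condensins move and pack the chromosomes. The mitotic genes are transcribed mainly in the last stages of the cycle, so their RNA in blood is widely used as a sign of circulating cells that divide, such as activated lymphocytes, plasmablasts and immature blood cells. In whole blood, fewer cells of a type and less RNA per cell cannot be told apart.

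The deposited counts summed to between 24632077 and 39892111 per cow, with a median of 33412740. No pair of the 190 pairs of libraries was a repeat of the same library, since counts differed by far more than sampling noise (smallest chi-square per degree of freedom 12.2). Levels are given as CPM, counts scaled to a common library total after TMM normalization, and correlations were computed on log2 CPM over 20 cows. The labelled tissue was checked by marker genes, and the defining markers of T cells (CD3E, median 217.9 CPM), B cells (MS4A1, median 315.7 CPM) and neutrophils (CSF3R, median 1840 CPM) were present in every cow.

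The 45 genes varied together from cow to cow. Over the 990 pairs of genes, the median Pearson r was 0.49, and 49.1% of the pairs had an r above 0.5. Over all 132332046 pairs of tested genes the median was -0.002, and 3.59% had an r above 0.5. The tightest pair was CENPF, a kinetochore protein, with TOP2A, the topoisomerase that untangles chromosomes, at r = 0.93. At the other end, TTK with MCM5 gave r = -0.46, and 6.57% of pairs were below 0. The median SD over cows was 0.23 on the log2 scale, beside 0.22 over all tested genes. In 43 of 45 genes the SD was more than 2 times that of counting error. The exceptions were KIF14 (0.222, beside 0.112 from counting) and AURKB (0.208, beside 0.106). These correlations share libraries and depth, and are given as a description.

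Co-variation was not limited to genes of the same stage. The median r was 0.48 among mitotic genes, 0.58 among replication genes, and 0.51 between a mitotic and a replication gene. A score was formed as the mean z-score of log2 CPM over the genes of a set. The mitotic and replication scores had r = 0.89 (Spearman's rho 0.83), and r = 0.81 without cows 50 and 47.4, the farthest from the median. Median r over pairs of genes was 0.41 without cow 50 and 0.37 without both of these cows, the latter a setting chosen after seeing the data.

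**Figure D1:**
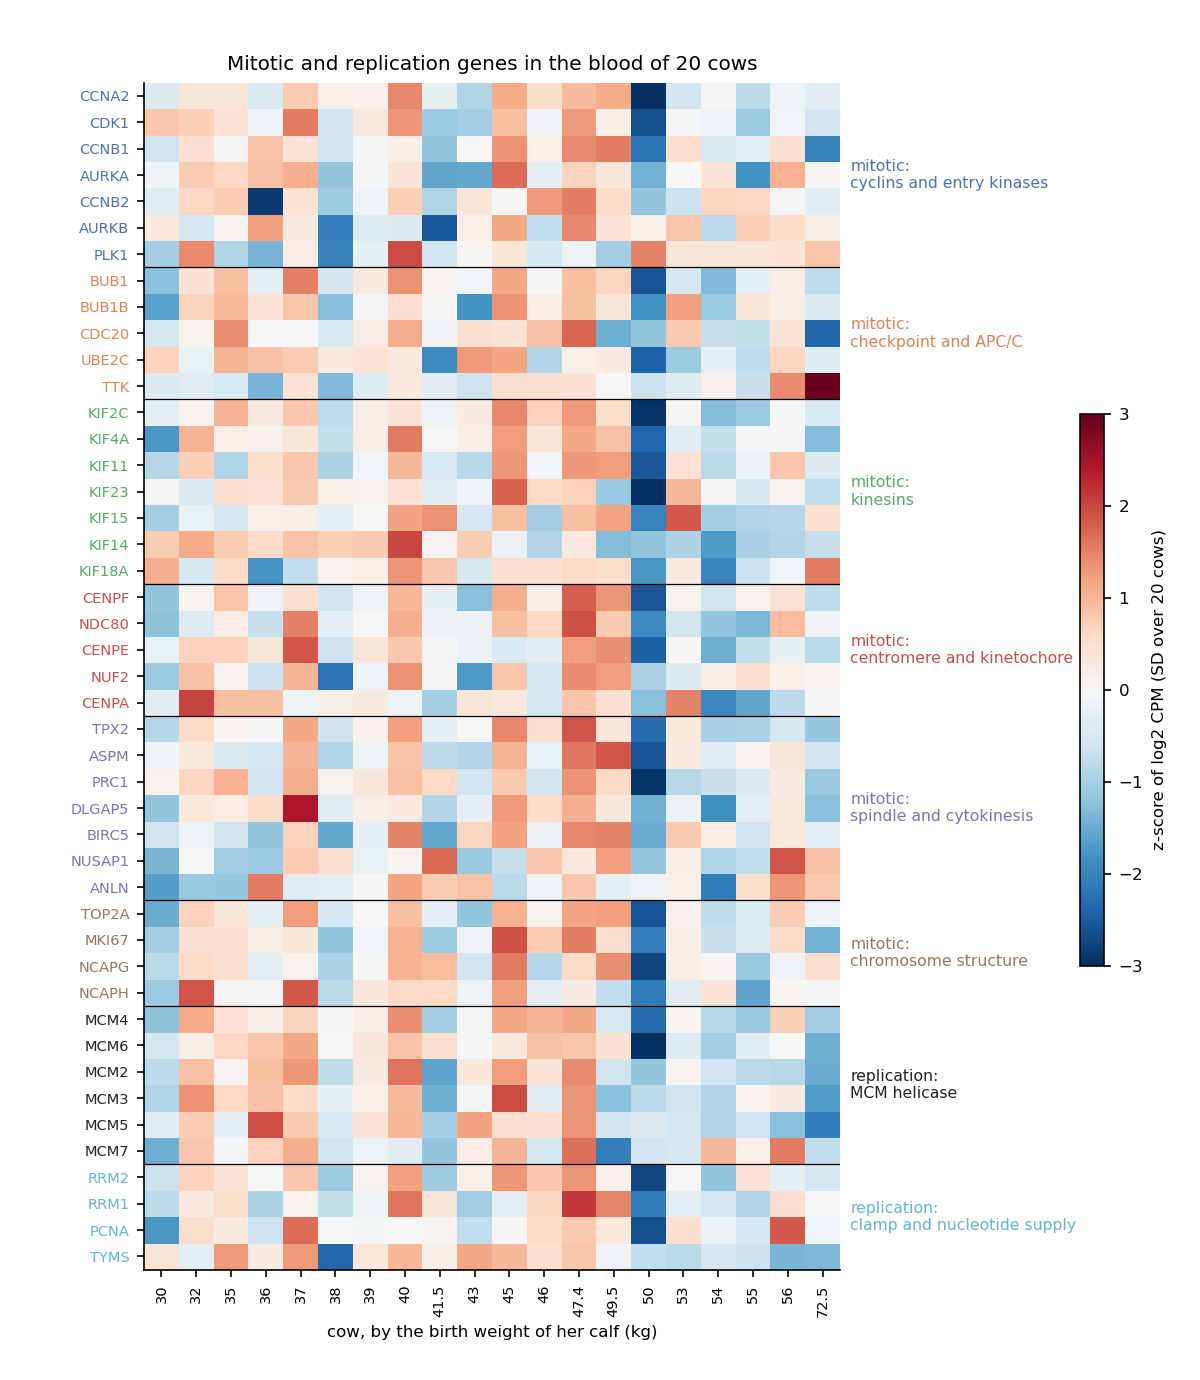
Each row is a gene, grouped by role, and each column a cow, ordered by the BW of her calf in kg; colour is the z-score of log2 CPM over 20 cows, red above and blue below the gene's mean, with values beyond 3 SD shown in the end colour. The column of cow 50 is blue for most genes, with PLK1 red, and TTK is red in that of cow 72.5.

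Of the 20 cows, 1 stood apart at the low end. Cow 50 had the lowest level of 26 of the 45 genes and was among the lowest 2 cows for 29. Her score over the 45 genes, a mean of z-scores, was -1.79, and the next lowest score was -0.64, in cow 54. At the high end, cow 47.4 had a score of 1.1 and the highest level of 11 genes, followed by cows 40 (0.89), 45 (0.87) and 37 (0.79). Cow 72.5 had a score of -0.45.

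Among the replication genes, the MCM helicase subunits had a median r of 0.62 with each other over 15 pairs. MCM2 was measured at 32.1 CPM in the lowest cow, 42.0 CPM in the median and 54.0 CPM in the highest. MCM4 had the highest correlation of the 6 subunits with the score of the other 44 genes (r = 0.89), from 42.9 CPM in cow 50 through a median of 59.9 CPM to 71.2 CPM in cow 40. MCM7 had the lowest (r = 0.40) and the narrowest range of all 45 genes, from 82.3 through 94.4 to 107.0 CPM, which is 1.3-fold. MCM3, MCM5 and MCM6 lay between, with r of 0.66, 0.47 and 0.81.

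The clamp and the enzymes of nucleotide supply moved with the helicase. PCNA was lowest in cow 50 at 45.4 CPM, with a median of 66.6 CPM and a highest level of 86.8 CPM in cow 56. RRM2, the subunit of ribonucleotide reductase that is made mainly in dividing cells, ranged from 20.3 through 36.6 to 47.2 CPM, or 2.33-fold, and followed the other genes closely (r = 0.91). RRM1, the large subunit, ranged 1.39-fold, with r = 0.76. TYMS, thymidylate synthase, had the lowest correlation of this group (r = 0.52), with 9.49, 12.7 and 14.4 CPM in the lowest, median and highest cow.

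The cyclins and kinases of mitotic entry were split. CDK1, the kinase that starts mitosis, was lowest in cow 50 at 6.62 CPM, with a median of 11.1 CPM, and highest in cow 37 at 15.3 CPM. CCNA2, cyclin A2, its partner, had the highest correlation of the group with the other genes (r = 0.85) and 5.44, 9.94 and 12.8 CPM in the lowest, median and highest cow. CDK1 and the cyclin gene CCNB1 had r of 0.85 and 0.80 with the rest. PLK1, a kinase that acts in spindle formation and cytokinesis, did not move with them: its r was 0.02, and at 9.16 through 11.7 to 14.4 CPM its second highest level, 13.7 CPM, was in cow 50, the lowest cow for most other genes. Without that cow its r was 0.32. AURKB, a kinase of the chromosomal passenger complex, had r = 0.30, and 0.20 without cow 47.4. CCNB2 and AURKA had r of 0.44 and 0.68.

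Of the spindle checkpoint and anaphase genes, BUB1, a checkpoint kinase, followed the score most closely (r = 0.93), at 10.3, 17.1 and 22.5 CPM in the lowest, median and highest cow. BUB1B had r = 0.77. CDC20 and UBE2C, which act with the anaphase-promoting complex, had r of 0.60 and 0.53, and that of UBE2C was 0.28 without cow 50. TTK, the kinase that starts checkpoint signalling, had the lowest correlation of the group (r = 0.19) and the widest range of all 45 genes, from 3.42 through 5.44 to 24.6 CPM. Its highest level was in cow 72.5, and without her r was 0.50.

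Among the 7 kinesins, KIF2C, which takes microtubules apart at the centromere, was the closest to the score (r = 0.90), at 3.65, 7.20 and 9.62 CPM in the lowest, median and highest cow. KIF4A and KIF11, the motor that pushes spindle poles apart, had r of 0.89 each. KIF18A, which aligns chromosomes, had the lowest r (0.34, and 0.13 without cow 50), with 1.91, 3.35 and 4.73 CPM, and KIF14, a motor of cytokinesis, had r = 0.39. KIF23 and KIF15 had r of 0.71 and 0.57.

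Of the centromere and kinetochore genes, CENPF was closest to the score (r = 0.89), from 70.3 CPM in cow 50 through 102.9 CPM to 131.4 CPM in cow 47.4. CENPA, the histone that marks the centromere, was least close (r = 0.49), at 8.14, 10.6 and 13.8 CPM. NDC80 and NUF2, partners in the complex that grips microtubules, had r of 0.86 and 0.66, and the kinesin-like CENPE 0.81.

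Among the genes of the spindle and of cytokinesis, TPX2, which activates AURKA, had the highest correlation of all 45 genes with the rest (r = 0.95), and kept at least 0.93 when any cow was left out. Its levels were 36.0, 48.7 and 62.0 CPM in the lowest, median and highest cow. ANLN, anillin of the cleavage furrow, had r = 0.12, and 0.026 without cow 54, at 6.42, 8.61 and 10.8 CPM, and NUSAP1, a spindle-associated protein, r = 0.26, and 0.14 without cow 50. ASPM, PRC1, DLGAP5 and BIRC5 (survivin) had r from 0.72 to 0.85.

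MKI67, the gene of the proliferation marker Ki-67, was lowest in cow 50 at 263.3 CPM and highest in cow 45 at 476.3 CPM, with a median of 368.1 CPM. TOP2A was measured at 30.3 CPM in cow 50, 48.9 CPM in the median and 61.1 CPM in cow 37. These genes of chromosome structure had r of 0.91 and 0.92 with the other genes. The condensin subunits NCAPG and NCAPH had r of 0.74 and 0.69, that of NCAPH the lowest of the group, at 11.6, 15.8 and 21.0 CPM. All 45 genes had an r above 0 with the score of the others, the median being 0.74.

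By Pearson r over 20 cows among 16224 tested genes, the 10 most like were PCLAF, a partner of PCNA, at r = 0.89, then STMN1, CEP55, KPNA2, ESPL1, KNSTRN, HSPA5, MCM10, CLSPN and MIS18A, the last at 0.84. STMN1 destabilizes microtubules, CEP55 acts in the cut between daughter cells, ESPL1 is the separase that frees sister chromatids, MCM10 and CLSPN act at replication forks, and MIS18A helps to place CENPA. Of the 10, 5 (STMN1, ESPL1, KNSTRN, MCM10 and CLSPN) were on the lists of other cell cycle genes used below. HSPA5, the chaperone of the endoplasmic reticulum, is not a cell cycle gene, and had 175.3 CPM in the lowest and 252.5 CPM in the highest cow. Among the most opposite were the histone gene H2BC15 (r = -0.78), DTX4, CYSTM1 and the myosin gene MYO1E (r = -0.76). These are ranks among many genes over 20 cows, and the median r of all genes outside the list was -0.0091.

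The other genes of the cell cycle were read from lists of 52 genes of G1/S and replication and 64 of G2/M, of which 113 passed the filter. An r above 0 with the score was found for 105 of the 113, with a median of 0.54. Of the 20 genes listed as brakes of the cell cycle, 11 had an r above 0 and the median was 0.011. Among the brakes, RBL1, a relative of the retinoblastoma protein, had the highest r (0.69), and FOXO3, a transcription factor of resting cells, the lowest (-0.55).

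Among 14 lists of lineage markers, the score followed T cell genes most closely. The r with the T cell score was 0.70 (Spearman's rho 0.84), 0.62 without cows 50 and 47.4, and between 0.64 and 0.74 when any cow was left out. All 13 T cell markers had an r above 0, the median being 0.60. CD3E, a chain of the T cell receptor complex, had the highest (r = 0.75), at 164.6, 217.9 and 285.0 CPM in the lowest, median and highest cow. CD3D had r = 0.61, CD4 0.51, and CD8A and CD8B 0.38 and 0.28.

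The score ran against B cell genes. The r with the B cell score was -0.60 (rho -0.66), -0.56 without the same 2 cows, and between -0.67 and -0.52 when any cow was left out. Of the 12 B cell markers, 11 had an r below 0, with a median of -0.56, the exception being BLK, a kinase of B cell receptor signalling, at 0.26. MS4A1 had r = -0.63 and ranged from 217.4 through 315.7 to 412.0 CPM. The T cell and B cell scores had r = -0.84 with each other, so the relation to T cell genes and that against B cell genes cannot be told apart in these cows.

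The relations were also read gene by gene, without the share over all tested genes. The 45 genes vary together, so these counts largely restate the relations of the score and are not separate support. The r with the T cell score was above 0 for 45 of 45 genes, and the r with the B cell score was below 0 for 43 of 45. The T cell list had the highest r of the 14 lists for 31 of the 45 genes, and the B cell list had the lowest for 26. The plasma cell list came first for 7 genes, which were KIF23 (r = 0.68), KIF2C (0.62), UBE2C (0.60), TYMS (0.59), MCM6, CDC20 and MCM5. PLK1 was closest to natural killer genes (r = 0.56). By role, r with the T cell score ran from 0.55 for the MCM helicase to 0.76 for the centromere and kinetochore genes.

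**Figure D2:**
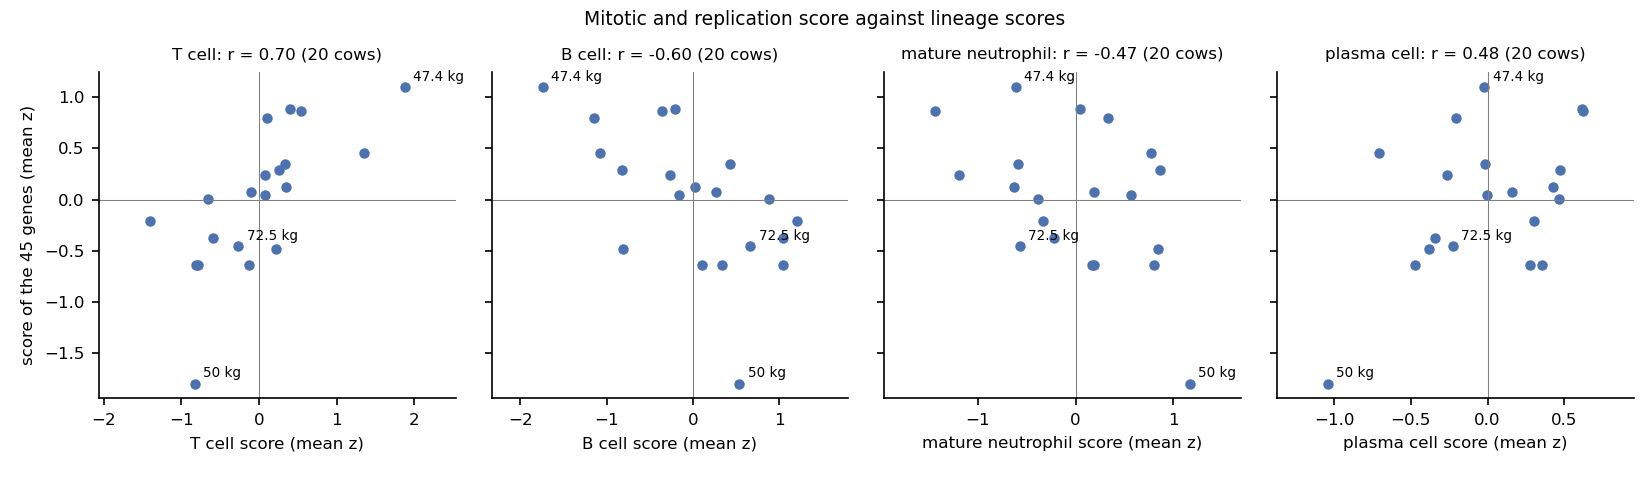
The score of the 45 genes (vertical, mean z-score of log2 CPM) is plotted against the T cell, B cell, mature neutrophil and plasma cell scores (horizontal, mean z-score), with 1 point per cow and cows 47.4, 50 and 72.5 marked. The points rise with the T cell score (r = 0.70) and fall with the B cell score (r = -0.60), and cow 50 is the lowest point in every panel.

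Relations to other lists were weaker or rested on 1 cow. Plasma cell genes had r = 0.48 with the score but 0.22 without cow 50, whose plasma cell score was -1.04. Of the 10 plasma cell markers 7 had an r above 0, with a median of 0.28, from -0.22 for FKBP11 to 0.62 for MZB1. JCHAIN, the joining chain of secreted antibodies, was measured at 102.7, 232.6 and 302.8 CPM with r = 0.51. Genes of activated and regulatory T cells had r = 0.46, and 0.17 without cows 50 and 47.4. In that list 7 of 8 markers had an r above 0, with a median of 0.20. TIGIT, an inhibitory receptor, had r = 0.71, IL2RA, the receptor chain that marks activation, 0.027, and TNFRSF18 -0.16. Natural killer and cytotoxic genes had r = 0.25, 0.54 without cow 50, and 0.49 without cows 50 and 47.4. Of the 8 markers 5 had an r above 0, with PRF1 (perforin) at 0.41, NCR1 at -0.028 and KLRF1, at a median of 0.51 CPM, at -0.27.

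Mature neutrophil genes had r = -0.47 with the score, -0.26 without the same 2 cows, and all 9 markers were below 0. CXCR2 had r = -0.29, and MMP25, the highest, -0.23. The r of the lists that mark immature blood cells lay nearer to 0, and for some of them the sign turned with 1 cow. The haematopoietic progenitor list had r = -0.044, from -0.37 without cow 47.4 to 0.11 without cow 50, or 0.47 when first principal components stood in for mean z-scores. Of its 9 markers 5 had an r above 0, from -0.55 for GATA2 to 0.40 for HLF. CD34, the defining marker, had r = -0.15 and no more than 0.59 CPM. The erythroid list had r = -0.095, and 0.0098 without cow 54. Of its 19 markers 10 had an r above 0, with a median of 0.0038, from -0.58 for KLF1, a transcription factor of red cell precursors, to 0.24 for HBM, which had a median of 0.16 CPM and 0 counts in the lowest cow. HBB, the beta globin gene, had r = 0.084. The primary granule list of neutrophil progenitors, with MPO at -0.035, had r = -0.25 from 2 genes, from -0.37 without cow 41.5 to -0.11 without cow 50, or 0.015 with the log2 of summed CPM as the score.

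The remaining lists lay between -0.16 and -0.12, and moved with single cows. Secondary and tertiary granule genes had r = -0.15, from -0.32 without cow 35 to -0.013 without cow 50, and 2 of the 7 were above 0, LTF (0.25) and PGLYRP1. Monocyte genes had r = -0.14, from -0.22 without cow 40 to 0.034 without cow 50, and 2 of the 9 were above 0, CSF1R and MARCO, the latter at a median of 0.21 CPM with 0 counts in the lowest cow, while CD14 had r = -0.078. Interferon-stimulated genes (ISG15 -0.15) had r = -0.12, from -0.18 without cow 37 to 0.12 without cow 30, and 6 of the 27 were above 0. Platelet genes had r = -0.16, from -0.24 without cow 47.4 to -0.036 without cow 54, with 3 of 14 above 0 (PF4 -0.35, MMRN1 0.21). IL5RA, the 1 eosinophil marker that passed, had r = -0.16, from -0.23 without cow 56 to -0.036 without cow 40. The score had r = 0.12 with the log2 of total counts and 0.23 with the percentage of mitochondrial counts. The part of either in the relations above was not tested.

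**Figure D3:**
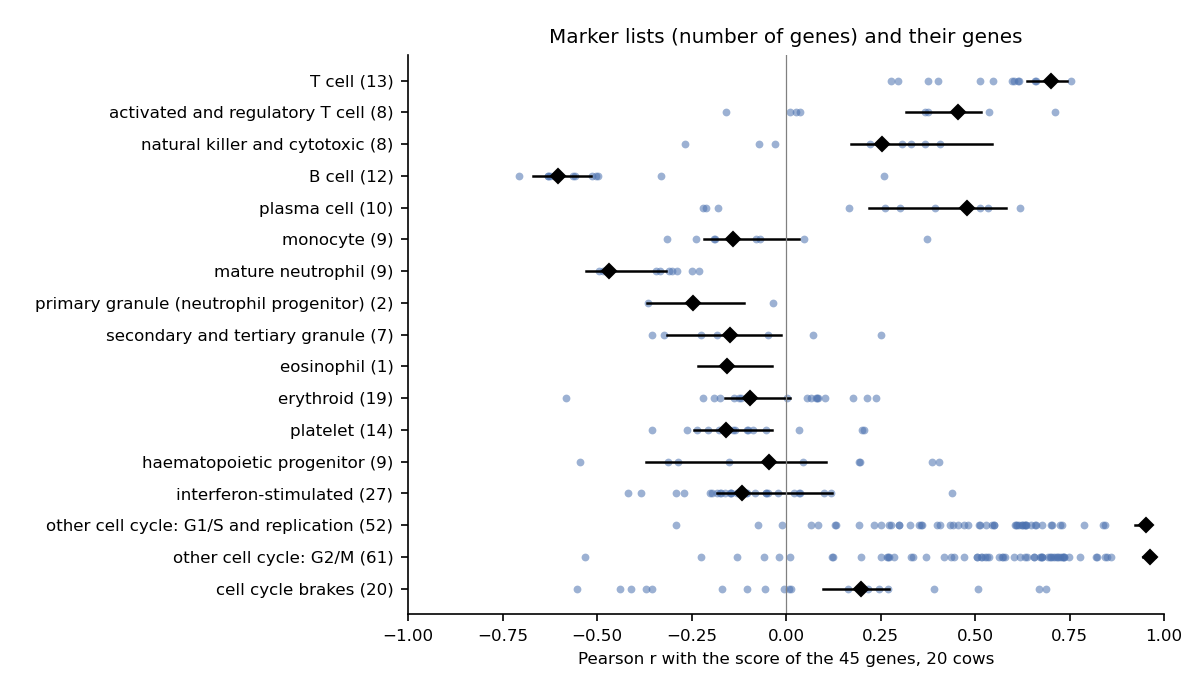
Each row is a list with the number of its genes; points give the Pearson r of each gene with the score of the 45 genes over 20 cows, diamonds the r of the list's score, and black lines the range of that r when 1 cow is left out. All 13 T cell markers lie right of 0, 11 of 12 B cell markers and all 9 mature neutrophil markers left of it, and the lists of other cell cycle genes lie farthest right.

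In relation to calf BW, the study's question was whether blood at day 63 carries a sign of later BW. The score of the 45 genes had r = -0.22 with BW in 20 cows (rho -0.20) and -0.16 in the 19 cows without cow 72.5 (rho -0.14). In the 19 cows, r lay between -0.29, without cow 30, and -0.047, without cow 50. The mitotic score had r = -0.13 in 19 cows, from -0.25 without cow 30 to -0.0096 without cow 50. The replication score had r = -0.24, from -0.40 to -0.16 without the same cows, and -0.38 in 20 cows. The genes were chosen with earlier results of these cows known, so no p-value is given for a score.

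Gene by gene, no slope on BW passed the threshold in the main test. With edgeR's quasi-likelihood test in 19 cows, 0 of 45 genes had a false discovery rate (FDR, Benjamini-Hochberg over 16269 genes) below 0.05, and 0 of all tested genes did (0%). At an unadjusted p below 0.05, 3 of 45 genes (KIF14, MCM5 and CENPA) were lower with heavier calves, where 7.06% of all genes were, and 0 were higher, where 6.84% of all genes were. A slope below 0 was found for 29 of 45 genes, beside 53.2% of all genes, and the median slope was -0.0043 log2 units per kg, beside -0.00069 over all genes. When any cow was left out, the members' median ran from -0.0060 without cow 30 to -0.00053 without cow 50. The count of 3 was 7 without cow 30 and 1 without cow 32, 36, 50, 54 or 55, and the count of 0 was 1 without cow 37, 50, 53 or 55. Of all 16269 genes, 1105 were lower without cow 30, and 988 to 1119 without cow 32, 36, 50, 54 or 55. Without cow 37, 50, 53 or 55, 1045 to 1260 of all genes were higher. With limma's voom 0 of 45 genes passed. The study's own test of BW in 19 cows used DESeq2, and it reported genes below this FDR in both directions. With DESeq2 here 1 of 45 genes passed, KIF14, beside 204 of all genes, 1.45% of those with an adjusted p in that test.

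KIF14 had the smallest p of the 45 genes, and an SD over cows of 0.222 log2 units, beside 0.112 from counting error. Its level was 4.04 CPM in the lowest cow, 5.42 CPM in the median and 7.18 CPM in the highest, cow 40. In the 10 cows with calves of up to 43 kg it lay between 5.32 and 7.18 CPM, and in 9 of the 10 cows with calves of 45 kg or more between 4.04 and 5.12 CPM, the other being cow 47.4 at 5.52 CPM; the place of this division was chosen after the values were seen. The slope was -0.024 log2 units per kg (SE 0.0050, edgeR p = 8.9e-05, FDR = 0.10), a fitted difference of -15.4% per 10 kg. Over the other edgeR settings, voom and the edgeR fits without each cow in turn, the FDR lay between 0.049 and 0.18. With DESeq2 the slope was also -0.024 and the FDR 0.0077, and it was at most 0.027 when any of the 19 cows was dropped. In tests on simulated counts, 11.9% of DESeq2's calls and 3.18% of edgeR's were false. The changed genes in those counts were changed by 0.06 log2 units per kg. Slopes as small as that of KIF14 were not simulated, so these shares cannot be applied to its call. KIF14 had r = -0.58 with IL5RA, the eosinophil marker, whose slope was 0.053, and r = 0.44 with the secondary and tertiary granule score of neutrophils, whose 7 genes all had slopes below 0 (median -0.026). The part of these markers in the slope of KIF14 was not tested.

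MCM5 and CENPA had smaller slopes. MCM5, at 28.7, 35.3 and 45.5 CPM in the lowest, median and highest cow, had a slope of -0.0093 (SE 0.0041, edgeR p = 0.034, FDR = 0.31), and CENPA one of -0.012 (SE 0.0055, edgeR p = 0.047, FDR = 0.35). Upward, the smallest p-values were those of TTK (0.062), BIRC5 (0.29) and NUSAP1 (0.33). BIRC5 was measured at 5.54, 7.07 and 9.42 CPM and had a slope of 0.0083 (SE 0.0076), and NUSAP1, at 102.3, 117.0 and 139.7 CPM, one of 0.0040 (SE 0.0040).

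MKI67, TOP2A and PCNA had slopes within 1 SE of 0. MKI67 had a slope of 0.00047 (SE 0.0060) and TOP2A one of -0.00063 (SE 0.0076), and the sign of each turned when some cows were left out. PCNA had a slope of 0.0032 (SE 0.0060). CDK1 (-0.014, SE 0.0078, edgeR FDR = 0.44) and MCM2 (-0.0099, SE 0.0063, edgeR FDR = 0.52) lay below 0 without passing. By role, 5 of the 6 MCM genes and 6 of the 7 kinesins were below 0, as were 3 of 7 cyclins and kinases, 3 of 5 checkpoint and anaphase genes, 3 of 5 centromere genes, 3 of 7 spindle genes, 3 of 4 genes of chromosome structure and 3 of 4 of the clamp and nucleotide supply.

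**Figure D4:**
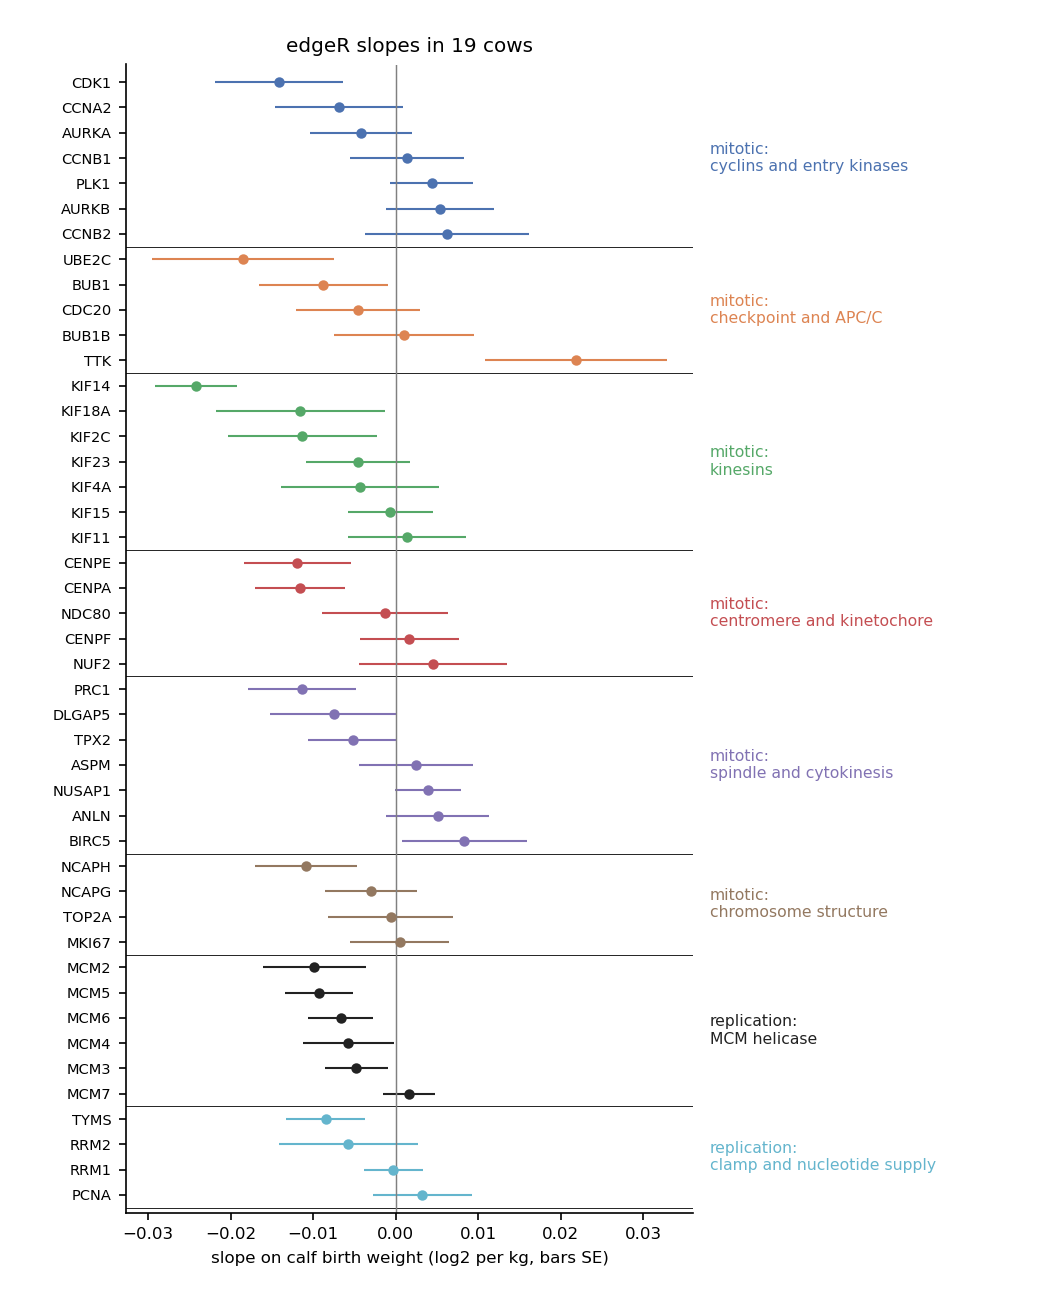
Points give each gene's slope on calf BW in 19 cows in log2 units per kg from edgeR, with bars of 1 SE, grouped by role. KIF14 (-0.024) lies farthest left and TTK (0.022) farthest right, and most bars cross or touch 0.

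Of the 113 other cell cycle genes, 78 had a slope below 0, beside 53.2% of all genes. At an unadjusted p below 0.05, 9 were lower with heavier calves, where 7.06% of all genes were, and 4 higher, where 6.84% were, none with an edgeR FDR below 0.05. Among genes of G1/S and replication the smallest p-values were those of BLM, a helicase of DNA repair (slope 0.015, SE 0.0041, edgeR FDR = 0.15), POLA2 (-0.016) and POLD3 (0.015, and 0.0056 without cow 56), both subunits of DNA polymerases, and among those of G2/M those of CKS2 (-0.017), HJURP (-0.017) and NCAPH2 (-0.0057). BLM had a DESeq2 FDR of 0.043, and one below 0.05 in 7 of 19 repeats that each dropped a cow.

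Of the 20 brakes of the cell cycle, 5 had a slope below 0, beside 53.2% of all genes. At an unadjusted p below 0.05, 1 was lower, where 7.06% of all genes were, and 4 higher, where 6.84% were. CDKN2B, an inhibitor of the kinases of G1, had 2.28, 6.42 and 37.8 CPM in the lowest, median and highest cow and a slope of 0.075 (SE 0.022, edgeR FDR = 0.16), which was 0.038 without cow 56. FOXO3 had a slope of 0.0081 (SE 0.0025, edgeR FDR = 0.18) and LIN9, a subunit of the complex that holds cell cycle genes off in resting cells, one of -0.016 (SE 0.0051, edgeR FDR = 0.18). None of the brakes passed an edgeR FDR of 0.05.

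TTK differed from most other genes in the cow of the heaviest calf. Of the 45 genes, 2 were highest in cow 72.5, TTK and KIF18A, the latter at 4.73 CPM, with 4.45 CPM in cow 40 next. In the 19 other cows TTK lay between 3.42 and 11.5 CPM with a median of 5.39 CPM, and in cow 72.5 it was 24.6 CPM (739 counts), 4.57 times that median. The next highest level was in cow 56. The slope in 19 cows was 0.022 (SE 0.011, edgeR p = 0.062, FDR = 0.39), 0.0098 without cow 56, and 0.045 in all 20 cows (edgeR FDR = 0.062). The study's own list of genes predictive of BW, which was chosen on these cows, holds TTK, ELOVL4 and CKS2. It is not independent evidence of the direction of any of them.

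The genes next to TTK were read as well, chosen after its values were seen. In the RefSeq order, ELOVL4, an enzyme that elongates very long chain fatty acids, and LOC132346203, a long non-coding RNA, lie on the same side of TTK, and BCKDHB, of branched-chain amino acid breakdown, on the other. ELOVL4 was 15.4 CPM in cow 72.5 and 1.84 to 5.60 CPM in the 19 others, 4.88 times their median of 3.15 CPM, with its next highest level also in cow 56. LOC132346203 had 128 counts in cow 72.5, 39 in cow 56 and 0 to 17 in the others. BCKDHB was 9.36 CPM in cow 72.5, within its range of 6.81 to 9.996 CPM in the others.

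The likeness of TTK to its neighbour and to the other mitotic genes depended on cow 72.5. The r of TTK with ELOVL4 was 0.81 in 20 cows and 0.54 in 19, and with the score of the other 44 genes 0.19 and 0.50. TTK had r = 0.47 with IL5RA and -0.56 with the granule score in 20 cows, and the part of these markers was not tested. In all 20 cows the slope of ELOVL4 was 0.048 (SE 0.0085, edgeR FDR = 0.045), and in 19 cows 0.020 (SE 0.011, edgeR FDR = 0.42). The strand setting of the authors' counting is not given in the sources used here, so reads of overlapping transcripts on opposite strands may not have been told apart. Whether transcripts of TTK and its neighbours overlap was not tested.

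**Figure D5:**
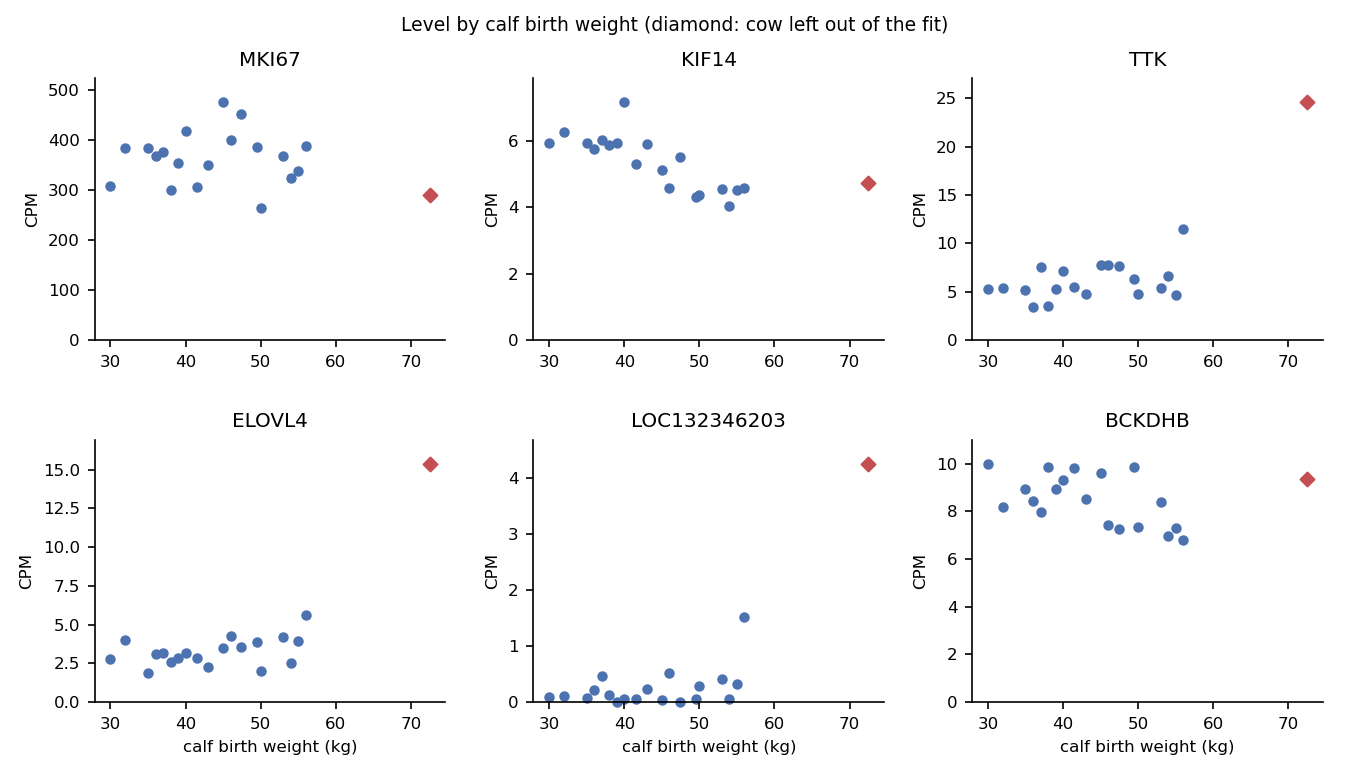
Level in CPM (vertical, from 0) against calf BW in kg (horizontal) for MKI67, KIF14, TTK and the neighbours of TTK, with 1 point per cow and a diamond for cow 72.5, who was left out of the models. TTK (24.6 CPM), ELOVL4 (15.4 CPM) and LOC132346203 (4.27 CPM) are highest in that cow, and BCKDHB (9.36 CPM) is not. KIF14 is lower in most cows with calves of 45 kg or more, cow 72.5 among them, a division chosen after the values were seen.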

How the data were processed

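RNA from whole blood of 20 cows was sequenced by the submitters. The authors trimmed reads with Trimmomatic, checked them with FastQC 0.11.9, and aligned them to bosTau9 (ARS-UCD1.3) with STAR 2.7.0b. Gene counts came from featureCounts of Subread 2.0.3, and the authors deposited these raw counts for every cow. The labels name the SMARTer Stranded RNA kit and the study's methods a TruSeq stranded mRNA kit. The strand setting and the treatment of multimapping reads are not given in the sources used here. Total counts ranged from 24632077 to 39892111 per cow, which sets the counting error.

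Names of 37063 Entrez identifiers came from the RefSeq table of ARS-UCD2.0, whose build differs, so no coordinates are given. A gene was tested if 5 or more of the 20 cows had 10 counts or more. edgeR 4.0.16 (R 4.3.3; TMM, quasi-likelihood test) gave slopes on calf BW in 19 cows, with Benjamini-Hochberg adjustment over all genes tested. DESeq2 1.42.0, voom of limma 3.58.1, other filters, size factors and covariates, all 20 cows and leaving out each cow were alternatives. Scores are mean z-scores of log2 CPM (prior count 2); correlations carry no p-value. Counts were simulated for 16269 genes, 200 of them changed by 0.06 log2 units per kg. Of the changed genes, edgeR recovered 76% with 3.18% of its calls false, and DESeq2 78% with 11.9% false. Smaller slopes were not simulated.

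The genes, marker lists and tests were chosen with earlier results of these data known. All members are accounted for by role. Values are given for MKI67, TOP2A, CDK1, TTK, PCNA and MCM2, for the members closest to and farthest from the rest in each role, for the 3 smallest p-values in each direction, for the 10 genes most like and 5 most opposite to the score, for the highest and the first listed marker of each lineage, and for the 3 smallest p-values in the other cell cycle lists. A few genes that this rule names are not reported here, and MS4A1 was named outside it. Each cow is 1 sample, and nothing in the labels groups the libraries by batch. Promoter sequences and motifs were not analysed here.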

Additional observations from a re-analysis of the deposited data

How the results depend on the processing

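The calls on BW were the most dependent on the setting. Genes lower with heavier calves at an unadjusted p below 0.05 numbered 6 in all 20 cows, 7 with the B cell score as a covariate, and 6 with the T cell or the interferon-stimulated score, in place of 3, and 1 to 7 when any cow was left out. Of all 16269 genes, 1043 were lower in all 20 cows, and 1190, 1236 and 921 with the B cell, T cell and interferon-stimulated score. Genes higher numbered 1 in all 20 cows and with the T cell or the interferon-stimulated score, in place of 0, beside 1133, 1118 and 1009 of all genes, and 0 to 1 when any cow was left out. In the edgeR fits that left out a cow, 908 to 1160 of all genes were lower and 694 to 1365 higher. Genes with an FDR below 0.05 numbered 1, KIF14, with DESeq2 and with edgeR on genes with any count, and 0 to 1 when any cow was left out, the 1 in each DESeq2 fit. Of all 23163 genes with any count, edgeR called 60 higher and 83 lower. The DESeq2 fits that left out a cow called from 13 genes higher and 30 lower, without cow 56, to 278 and 183, without cow 32. Over the edgeR and voom settings that kept all 19 cows, the FDR of KIF14 ran from 0.049 with any count to 0.17 with voom, and its slope from -0.025 to -0.024 where BW was in kg.

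Some slopes near 0 turned sign. The MKI67 slope was -0.0041 in all 20 cows, -0.00058 with the erythroid, -0.0012 with the B cell and -0.0042 with the interferon-stimulated score, and -0.0028 to 0.0036 when any cow was left out. The TOP2A slope was 0.00051 with the haematopoietic progenitor score and -0.0060 to 0.0034 when any cow was left out. The PCNA slope was -0.00019 with the interferon-stimulated score and -0.0018 to 0.0067 when any cow was left out.

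The median r between genes was 0.37, and the r with the activated and regulatory T cell score 0.20, once cows 50 and 47.4 were left out and scores recomputed, a setting chosen after seeing the data. By Spearman's rho, the mitotic and replication scores gave 0.83 and the T cell relation 0.84. The primary granule relation was 0.015 with the log2 of summed CPM, and that of the haematopoietic progenitor list 0.47 with the first principal component. The cause was not tested. Of the other settings of these counts, scores and medians, 228 moved less than the spread over cows or stayed within 1.5 times the main count. No paired analysis was possible because the cows form 1 group. Depth limits the lowest genes, and the 20 cows limit every correlation.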
